A study of Mus musculus with 2 samples.

Results

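The genes of the mouse histone deacetylases, sirtuins, lysine demethylases and lysine methyltransferases were examined for open chromatin that differs between 2 populations of adipose progenitors. Members were the protein-coding genes whose symbol is Hdac, Sirt, Kdm, Kmt, Setd or Prdm followed by a number, except Prdm16, together with Ezh1, Ezh2, Nsd1, Suv39h1, Suv39h2 and Dot1l. This gave 71 of 21887 nuclear protein-coding genes. A peak belonged to a member when its centre lay in the gene or within 50 kb of it, which took 43 of 8002 peaks of the PDGFRα list and 76 of 14483 peaks of the CD137 list.

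The PDGFRα+ and the CD137+ group each consisted of 1 ATAC-seq library, an assay in which a transposase cuts and tags accessible DNA. Both came from adipose tissue of C57BL/6 mice, as cells isolated on magnetic beads from SAT or VAT, grown in culture, given an adipogenesis cocktail and finally 1 µM of dexamethasone, a synthetic glucocorticoid. Depot, sex and age of the mice behind each group are not stated in the labels, and no untreated library was analysed here, so no value measures an effect of dexamethasone. PDGFRα, a receptor tyrosine kinase, is found on stromal progenitors of fat, and CD137, the protein of Tnfrsf9, is used as a marker of beige progenitors.

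These enzymes set and remove marks on histone tails. Deacetylases remove acetyl groups that go with open, active chromatin, and most act inside large corepressor complexes. Methyltransferases of the SET family add methyl groups to single lysines, at H3K4 in active promoters and enhancers and at H3K27 or H3K9 in silent chromatin, and demethylases take them off again. In fat cells several of them, among them Hdac3, Ezh2, Kdm1a and Kmt2d, are known from mouse work as regulators of differentiation or thermogenic genes.

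Each deposited list holds the peaks that its authors call unique to that library, with a position and a place class but no height, score or read number. Depth is therefore unknown, intervals cover counting error only, and with 1 library per group there is no test and no p-value. Sites open in both libraries are not listed, so a member with no unique peak is not thereby closed. Unique peaks within 50 kb were at 9 of 10 stromal progenitor markers (10 PDGFRα and 26 CD137 peaks), 6 of 6 adipocyte markers (3 and 10), 4 of 5 endothelial markers (6 and 4), 3 of 5 immune markers (1 and 2), 4 of 4 mesothelial markers (7 and 2) and 3 of 5 early embryo markers (2 and 4), where 65.1% of all protein-coding genes had one. Early embryo markers were included because the extraction text of the labels speaks of embryonic cells. Pdgfra itself had 0 PDGFRα peaks and 1 CD137 peak, and Tnfrsf9 had 1 of each. The part of other cells in the values below was not tested.

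As a family, the enzyme genes divided their peaks between the lists much as other genes did. The PDGFRα share of their 119 peaks was 36.1% (exact binomial 95% interval 27.5 to 45.4%), beside 38.0% of the 16824 peaks within 50 kb of any protein-coding gene and 35.6% of all 22485 peaks. Per length of DNA, their windows held 3.6 PDGFRα peaks per Mb (exact Poisson 95% interval 2.6 to 4.84) and 6.36 CD137 peaks per Mb (5.01 to 7.96), beside 3.79 and 6.18 over the windows of all protein-coding genes. Of the 71 members, 50 had a unique peak (70.4%), beside a background of 65.1% of all protein-coding genes. By list, 8 members had PDGFRα peaks only (11.3%, background 15.6%), 22 had CD137 peaks only (31.0%, background 24.7%) and 20 had both (28.2%, background 24.8%). Of the 32 members with 2 or more peaks, 2 had PDGFRα peaks only (6.25%, background 11.1% of such genes), 10 had CD137 peaks only (31.2%, background 24.6%) and 20 had both (62.5%, background 64.2%). The members' genes are longer than most, with a median span of 42.4 kb beside 17.2 kb over all genes. The intervals of the PDGFRα share and of both densities span the values over all genes, and the median number of peaks per gene was 1 for members and 1 for all genes.

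**Figure D1:**
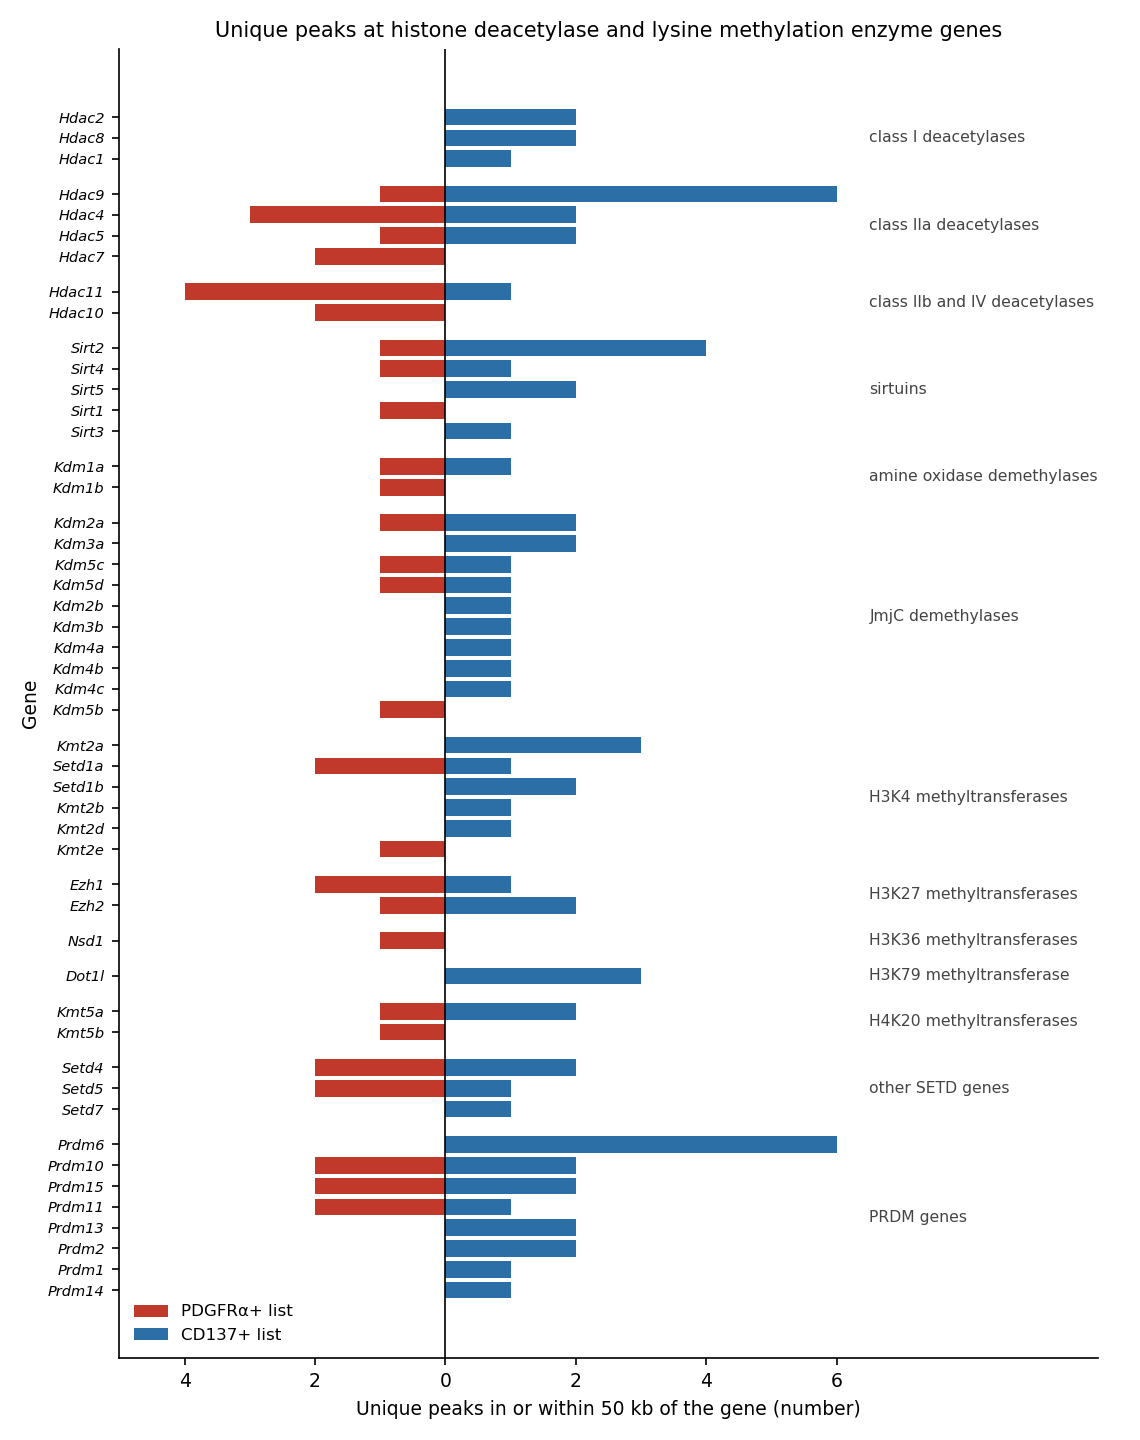
Number of unique peaks in or within 50 kb of each of 49 enzyme genes that have any, with PDGFRα peaks as bars to the left and CD137 peaks as bars to the right, grouped by role. Hdac11 reaches 4 PDGFRα peaks, and Hdac9 and Prdm6 reach 6 CD137 peaks each. Numbers are not adjusted for gene length, and Hdac9 spans 870 kb and Prdm6 112 kb.

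**Figure D2:**
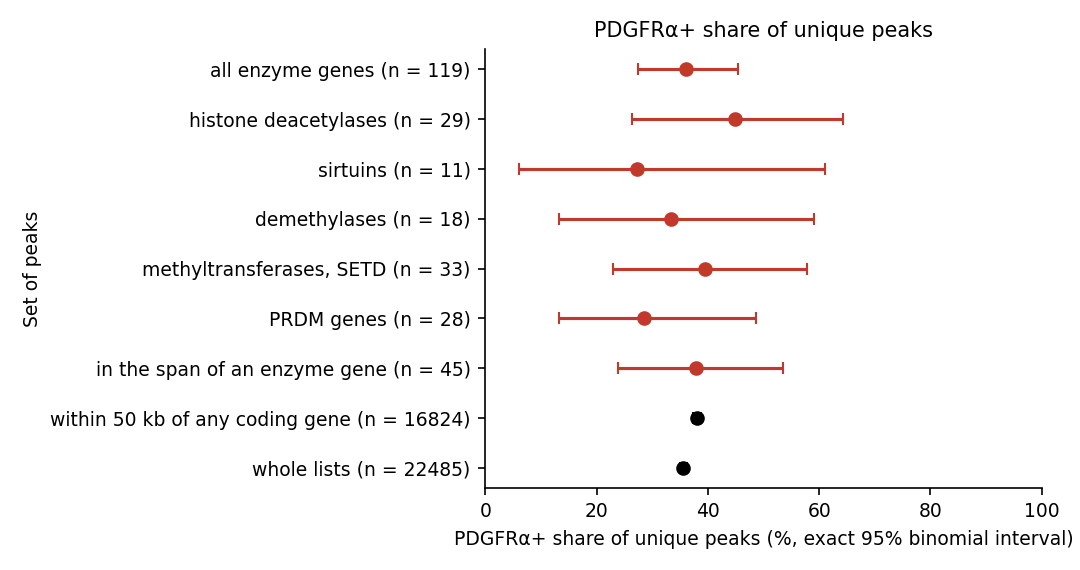
PDGFRα share of unique peaks (percent, points) with exact 95% binomial intervals (bars) for the enzyme genes and their groups in red, and for peaks near any protein-coding gene and for the whole lists in black. The interval of every enzyme group drawn here spans the share of 38.0% seen near all genes. The histone deacetylases pool class I (0 PDGFRα and 5 CD137 peaks), class IIa (7 and 10) and class IIb and IV (6 and 1). These classes are not drawn apart.

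The group intervals were wide because the numbers are small. The PDGFRα share was 44.8% of 29 peaks at histone deacetylases (26.4 to 64.3%), 27.3% of 11 at sirtuins (6.02 to 61.0%), 33.3% of 18 at demethylases (13.3 to 59.0%), 39.4% of 33 at methyltransferases and SETD genes (22.9 to 57.9%) and 28.6% of 28 at PRDM genes (13.2 to 48.7%).

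At 6 members a unique peak lay over an annotated transcription start. Starts and promoter sequences were available for 55 of the 71 members. Ezh1 and Kdm5d had a start inside a PDGFRα peak, and Dot1l, Kdm1a, Kdm3a and Kmt5a had one inside a CD137 peak. Over all 17492 protein-coding genes with a listed start, 1.78% had one inside a PDGFRα peak and 2.88% inside a CD137 peak. The promoters of the 6 genes are shown because they are the places where a difference between the lists falls on the start of a member. Each runs 250 bases before to 50 bases after the start, 5′ to 3′, from RefSeq (GRCm38.p6, which is mm10). Capitals mark matches on either strand to AGAACA (the hexamer of the glucocorticoid receptor), GGAATG (TEAD), TGANTCA (AP-1), CCAAT or GGGCGG (GC box).
Ezh1 (chr11:101226414-101226713, minus strand): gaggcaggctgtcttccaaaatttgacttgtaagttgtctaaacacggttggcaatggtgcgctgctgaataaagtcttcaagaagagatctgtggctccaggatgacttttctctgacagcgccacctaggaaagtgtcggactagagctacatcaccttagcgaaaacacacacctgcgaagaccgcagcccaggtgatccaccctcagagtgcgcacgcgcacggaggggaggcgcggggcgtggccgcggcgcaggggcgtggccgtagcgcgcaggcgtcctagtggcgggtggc
Kdm5d (chrY:897538-897837, plus strand): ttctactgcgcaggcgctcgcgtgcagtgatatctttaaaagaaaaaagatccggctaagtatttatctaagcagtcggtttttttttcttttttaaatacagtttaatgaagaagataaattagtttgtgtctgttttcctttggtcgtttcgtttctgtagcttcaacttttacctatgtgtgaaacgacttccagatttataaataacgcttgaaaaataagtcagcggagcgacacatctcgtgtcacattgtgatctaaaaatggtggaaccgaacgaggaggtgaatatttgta
Dot1l (chr10:80754953-80755252, plus strand): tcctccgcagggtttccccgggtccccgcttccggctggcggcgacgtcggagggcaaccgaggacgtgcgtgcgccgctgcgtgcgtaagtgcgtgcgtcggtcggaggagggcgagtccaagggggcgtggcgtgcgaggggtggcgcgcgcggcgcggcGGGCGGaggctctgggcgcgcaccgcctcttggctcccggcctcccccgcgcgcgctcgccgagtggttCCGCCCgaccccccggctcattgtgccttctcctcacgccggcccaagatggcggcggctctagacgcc
Kdm1a (chr4:136602674-136602973, minus strand): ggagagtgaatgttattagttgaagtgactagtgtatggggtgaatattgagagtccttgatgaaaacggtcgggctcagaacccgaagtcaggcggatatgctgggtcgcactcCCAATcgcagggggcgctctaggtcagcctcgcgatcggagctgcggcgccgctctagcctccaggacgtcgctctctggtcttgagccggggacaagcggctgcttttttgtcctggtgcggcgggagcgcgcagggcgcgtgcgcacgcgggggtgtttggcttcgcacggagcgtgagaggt
Kdm3a (chr6:71609090-71609389, minus strand): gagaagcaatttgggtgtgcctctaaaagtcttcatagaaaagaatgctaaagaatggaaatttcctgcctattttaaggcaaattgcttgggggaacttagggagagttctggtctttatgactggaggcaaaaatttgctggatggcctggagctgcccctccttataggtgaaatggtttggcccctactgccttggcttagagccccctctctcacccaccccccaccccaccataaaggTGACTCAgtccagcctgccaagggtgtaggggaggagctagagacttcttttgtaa
Kmt5a (chr5:124446454-124446753, plus strand): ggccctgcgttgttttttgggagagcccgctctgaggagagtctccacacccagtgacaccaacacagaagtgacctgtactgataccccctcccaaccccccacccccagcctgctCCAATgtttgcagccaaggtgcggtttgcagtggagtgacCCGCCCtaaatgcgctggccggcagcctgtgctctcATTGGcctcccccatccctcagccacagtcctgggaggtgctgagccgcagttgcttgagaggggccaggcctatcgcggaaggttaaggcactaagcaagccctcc

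The 6 promoters differed in CpG content. The Dot1l promoter held 49 CpG dinucleotides, Kdm1a 29, Ezh1 23, Kdm5d 15, Kmt5a 9 and Kdm3a 0, beside a median of 7 (quartiles 3 and 20) over all 32851 promoters of the table. The start of Kdm3a is an internal one, 1 of 3 listed for the gene, and its window held the AP-1 letters once, as TGACTCA. Over all promoters 7.81% held the AP-1 letters. The glucocorticoid receptor hexamer and the TEAD letters, held by 19.0% and 14.7% of all promoters, were in none of the 6 windows. The GC box was found 2 times at Dot1l and once at Kmt5a (35.7% of all promoters hold it), and CCAAT once at Kdm1a and 2 times at Kmt5a (37.4%). A match is a description of the letters and does not show that a factor was bound.

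Class I deacetylases, among them the catalytic subunits of the Sin3, NuRD, CoREST and NCoR corepressors, had 0 PDGFRα peaks and 5 CD137 peaks. Hdac8, an X-linked enzyme that deacetylates cohesin, had 2 CD137 peaks in introns, Hdac2 had 2 beyond its end, 12.6 and 33.5 kb away, and Hdac1 had 1, which lay in Fam229a. Hdac3, the NCoR partner, had no unique peak.

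Class IIa deacetylases shuttle between cytoplasm and nucleus and bind MEF2 factors. All 4 had a unique peak, 7 PDGFRα and 10 CD137 peaks in sum. The background was 65.1% of all protein-coding genes, and 94.2% of those of 200 kb and more, a length that Hdac4 and Hdac9 reach. Hdac9, which restrains fat cell formation in mice, had 1 PDGFRα peak, at chr12:34713990-34714821, and 6 CD137 peaks. The CD137 peaks lay at chr12:34124100-34125396, chr12:34146166-34147588, chr12:34178637-34179942, chr12:34214981-34216344, chr12:34791713-34792927 and chr12:34807718-34808822. They formed a run of 4 between 77.2 and 168 kb from the lower-coordinate end of the gene and a pair at 745 and 761 kb, with the PDGFRα peak at 667 kb. Hdac9 spans 870 kb and its window 970 kb, where the windows of all protein-coding genes held 3.79 PDGFRα and 6.18 CD137 peaks per Mb. Its 6 CD137 peaks are thus near the number for DNA of that length, and its 1 PDGFRα peak is below it. Hdac9 runs on the minus strand and has listed starts at 34917095 and 34528889. The run of 4 lay downstream of both starts, and the other 3 peaks lay between the starts. All 7 lie within the RefSeq span, yet their deposited class is intergenic. Its neighbour Twist1, a basic helix-loop-helix factor of mesenchymal cells, lies 87.7 kb beyond the lower-coordinate end.

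Hdac4 had 3 PDGFRα and 2 CD137 peaks, which alternated along the gene. The PDGFRα peaks lay at chr1:91880421-91881794, chr1:92099451-92100944 and chr1:92127154-92128582, and the CD137 peaks at chr1:92014282-92015381 and chr1:92112919-92113909. The CD137 peak at 185 kb from the lower-coordinate end stood between PDGFRα peaks at 171 and 199 kb, with gaps of 12 and 13.2 kb. The outer PDGFRα peak was nearer to Twist2, 33.1 kb away, than to Hdac4. Hdac5 had 1 PDGFRα peak in an exon (chr11:102201079-102202244), and its 2 CD137 peaks lay outside it, in Nags (chr11:102145302-102146462) and Hrob (chr11:102248427-102250211). Hdac7 had 2 PDGFRα peaks and no CD137 peak, 1 in an intron (chr15:97811857-97813691) and 1 in the neighbouring vitamin D receptor gene Vdr (chr15:97853712-97855267).

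Hdac11, the class IV enzyme, which restrains brown fat thermogenesis in mice, had the most PDGFRα peaks of the family, 4, against 1 CD137 peak. Of all protein-coding genes 1.33% had 4 or more PDGFRα peaks within 50 kb. Among the 71 members only Hdac11 reached 4, and it was singled out after its numbers were seen. The PDGFRα peaks lay at chr6:91139447-91140438, chr6:91161668-91162800, chr6:91173192-91174132 and chr6:91206060-91208782, and the CD137 peak at chr6:91180166-91182330. For 3 of the 4 PDGFRα peaks and for the CD137 peak Hdac11 was the nearest protein-coding gene, and the last PDGFRα peak was nearer to the matrix gene Fbln2, 5.04 kb away. Hdac11 spans 18.0 kb, and genes under 25 kb averaged 0.437 PDGFRα and 0.578 CD137 peaks. Hdac10, a polyamine deacetylase, had 2 PDGFRα peaks, which lay in Tubgcp6 (chr15:89109727-89110942) and Mapk11 (chr15:89148601-89150596). The tubulin deacetylase gene Hdac6 had none.

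**Figure D3:**
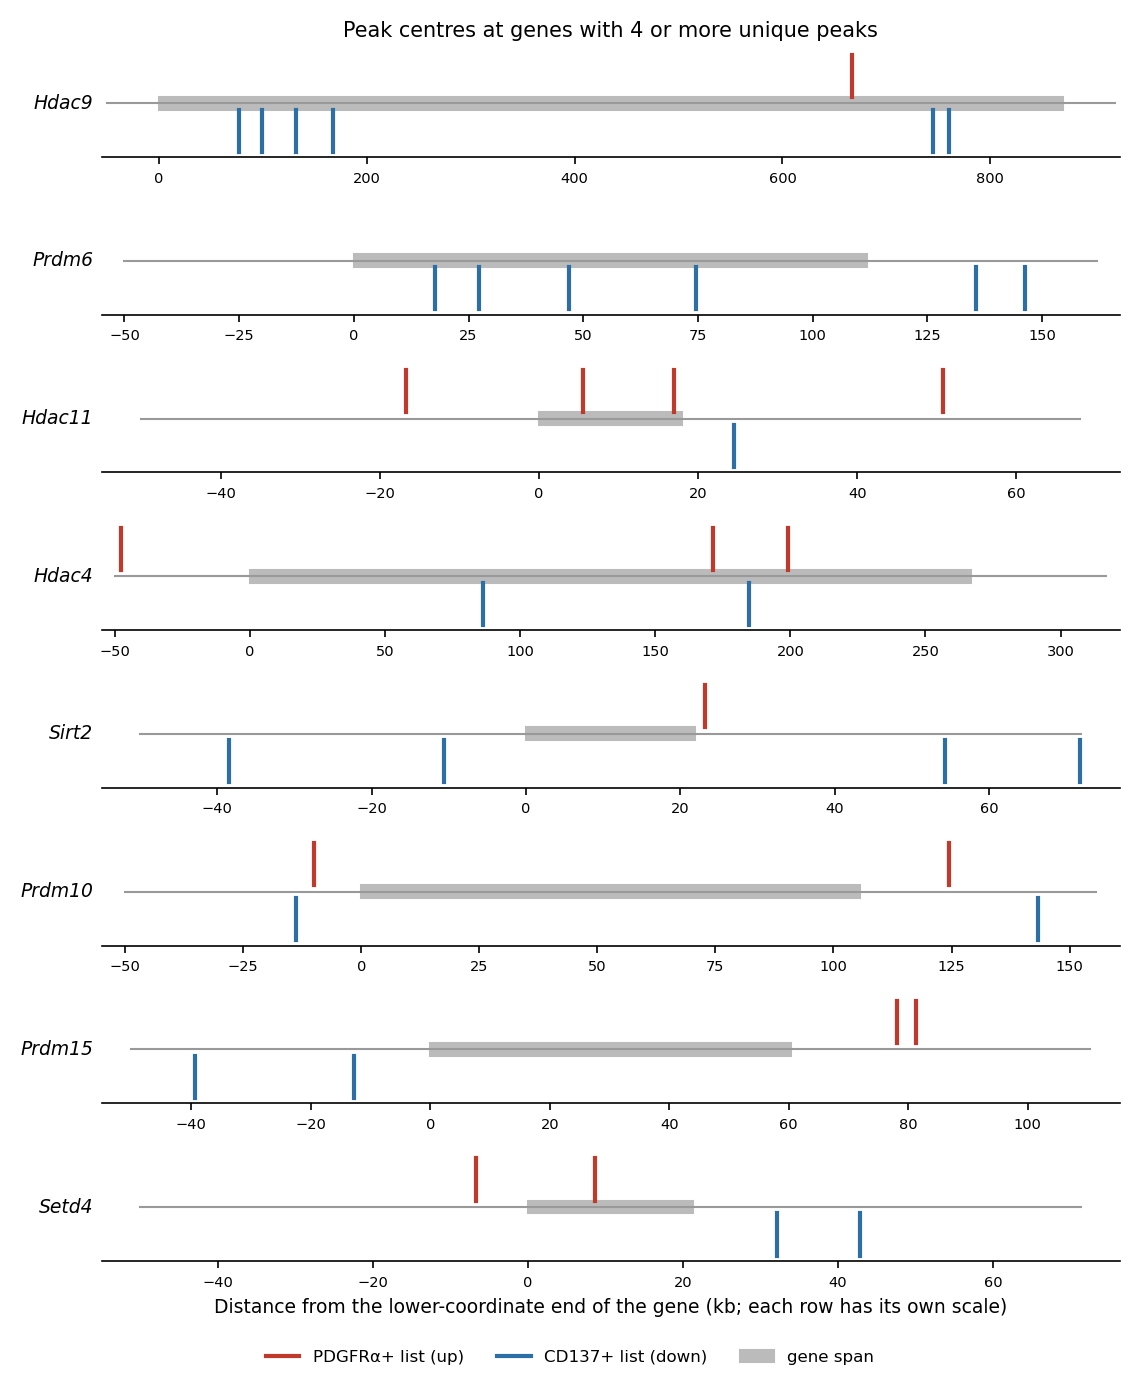
Centres of PDGFRα peaks (lines up) and CD137 peaks (lines down) at 8 enzyme genes with 4 or more unique peaks, with the distance from the lower-coordinate end of the gene in kb and the gene span as a grey bar. The CD137 peaks of Hdac9 fall in a run of 4 and a pair, Prdm6 has lines down only, and the lines of Hdac4 alternate.

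Sirtuins are NAD-dependent deacylases. They had 3 PDGFRα and 8 CD137 peaks at 5 of 7 genes (71.4%, background 65.1%), none of them inside a sirtuin gene. Sirt2, a mainly cytoplasmic enzyme, had 1 PDGFRα peak 1.24 kb beyond its end, in Rinl (chr7:28788987-28790817). Its 4 CD137 peaks, at chr7:28727756-28728657, chr7:28755280-28756910, chr7:28819916-28822245 and chr7:28838089-28838841, were each in another gene too. Sirt1, which deacetylates PGC-1α, had 1 PDGFRα peak, in Herc4 10 kb away (chr10:63308341-63309664), and no CD137 peak. Among the mitochondrial sirtuins, Sirt4 had 1 PDGFRα and 1 CD137 peak, Sirt3 had 0 and 1, and Sirt5 had 0 and 2, the nearer of them 11.0 kb away. The nuclear Sirt6 and Sirt7 had none.

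The amine oxidase demethylases act on H3K4. Kdm1a (LSD1), a subunit of CoREST complexes, had 1 PDGFRα peak 35 kb away in Lactbl1 and 1 CD137 peak over its start (chr4:136602581-136603479). Kdm1b had 1 PDGFRα peak, in Rnf144b (chr13:47122224-47123618), and no CD137 peak.

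JmjC demethylases had 4 PDGFRα and 11 CD137 peaks at 10 of 16 genes (62.5%, background 65.1%). Those with CD137 peaks only were Kdm3a (2), an H3K9 demethylase whose loss makes mice obese, and Kdm2b, Kdm3b, Kdm4a, Kdm4b and Kdm4c (1 each). One of the Kdm3a peaks covered the internal start shown above (chr6:71608598-71609687), and its centre was 3.5 bases from that start. Of the peaks at the other 5, the one at Kdm4b, in an intron, was the only one inside the enzyme gene. Kdm2a, which acts on H3K36, had 1 PDGFRα peak (chr19:4408618-4409850) and 2 CD137 peaks (chr19:4268430-4269504 in Ssh3 and chr19:4304752-4307062 in Grk2).

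The H3K4 demethylases of the Kdm5 group had PDGFRα peaks at 3 of 4 genes, where 40.4% of all protein-coding genes had one within 50 kb. The Kdm5 genes were not a group set in advance. Of all 16 JmjC genes, 1 had PDGFRα peaks only (6.25%, background 15.6%) and 3 had both (18.8%, background 24.8%). Kdm5b had 1, in Syt2 (chr1:134645723-134647580), and no CD137 peak. Kdm5c, on X, had 1 PDGFRα peak in Iqsec2 and 1 CD137 peak in its own exon. Kdm5d, on Y, had 1 PDGFRα peak over its start (chrY:897191-898098) and 1 CD137 peak 24.6 kb away (chrY:872618-873410). The H3K27 demethylase genes Kdm6a and Kdm6b, and also Kdm4d, Kdm5a, Kdm7a and Kdm8, had none.

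The H3K4 methyltransferases had 3 PDGFRα and 8 CD137 peaks at 6 of 7 genes (85.7%, background 65.1%). Kmt2a (MLL1) had 0 and 3. Its CD137 peaks were in an exon (chr9:44826247-44827594), in an intron (chr9:44868131-44869258) and 10.5 kb outside, beside Ift46 (chr9:44792038-44793685). Setd1a, which with Setd1b makes much of the H3K4 trimethylation at promoters, had 2 PDGFRα peaks and 1 CD137 peak. The PDGFRα peaks lay in its exon (chr7:127788167-127789499) and 24.1 kb outside (chr7:127823418-127825078). The CD137 peak lay between them, 14.2 kb outside (chr7:127813601-127815009). Setd1b had 0 and 2, Kmt2b 0 and 1, and Kmt2d 0 and 1, and all 4 of these peaks lay outside the enzyme genes. Kmt2e had 1 PDGFRα peak, in an intron (chr5:23439127-23440614), and no CD137 peak, and Kmt2c had none.

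The catalytic subunits of Polycomb repressive complex 2 each had peaks of both lists, as did 24.8% of all protein-coding genes. Ezh1 had a PDGFRα peak over its start (chr11:101225630-101226838), a further one 47.2 kb away (chr11:101143482-101144349) and a CD137 peak in Tubg2 (chr11:101155465-101156708). Ezh2 had a PDGFRα peak in an intron (chr6:47559120-47560013) and CD137 peaks 26.1 and 47.3 kb outside (chr6:47620928-47621881 and chr6:47642080-47642991). At both genes the peak inside the gene was a PDGFRα peak. The H3K9 methyltransferase genes Suv39h1 and Suv39h2 had none.

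Dot1l, the H3K79 methyltransferase, had 0 PDGFRα peaks and 3 CD137 peaks, all inside the gene. The one over its start was 4374 bp wide (chr10:80754289-80758663), the widest CD137 peak of the family, where the median of the whole list was 1221 bp. The others lay at chr10:80773932-80775483 and chr10:80779094-80780346. Nsd1, which makes H3K36 dimethylation, had 1 PDGFRα peak, 9.74 kb from Fgfr4 (chr13:55177741-55179257), and no CD137 peak, and Setd2 had none.

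Of the H4K20 methyltransferases, Kmt5a had 1 PDGFRα peak (chr5:124509232-124510952) and 2 CD137 peaks (chr5:124445896-124447500 and chr5:124506299-124507759). The first CD137 peak covered an internal start, with its centre 6 bases away, and the second lay 1.47 kb from the PDGFRα peak in an intron of Rilpl1. Kmt5b had 1 PDGFRα peak, nearest to Chka (chr19:3838630-3840543), and Kmt5c had none. Setd4 had 2 PDGFRα peaks (chr16:93576130-93577390 and chr16:93591581-93592551, the second in an intron) and 2 CD137 peaks towards Cbr1 (chr16:93615009-93616057 and chr16:93625268-93627342). Setd5 had 2 PDGFRα peaks (chr6:113032750-113033818 and chr6:113033884-113035050) and 1 CD137 peak (chr6:113037430-113039115). The CD137 peak lay 2.38 kb from the nearer PDGFRα peak, and all 3 were nearer to Thumpd3 than to Setd5. Setd7 had 1 CD137 peak, and Setd3, an actin histidine methyltransferase gene, and Setd6 had none.

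PRDM proteins join a SET-like domain to zinc fingers, and many act as lineage regulators. They had 8 PDGFRα and 20 CD137 peaks at 9 of 13 genes (69.2%, background 65.1%). Prdm6, a repressor of smooth muscle differentiation, had 0 PDGFRα and 6 CD137 peaks, and it was the nearest protein-coding gene for all 6. Of all protein-coding genes 0.155% had 6 or more CD137 peaks and no PDGFRα peak within 50 kb, a cut set at the numbers of Prdm6. Most of those genes are shorter than Prdm6, which spans 112 kb. All protein-coding genes of 100 to 200 kb averaged 1.12 PDGFRα and 1.76 CD137 peaks. The Prdm6 peaks lay at chr18:53481040-53482309, chr18:53490228-53492077, chr18:53510368-53511554 and chr18:53537548-53539358 in introns, and at chr18:53598998-53599997 and chr18:53609614-53610977, 23.6 and 34.4 kb outside. The nearest PDGFRα peak was 159 kb from the first of them. Without Prdm6 the PDGFRα share at PRDM genes was 36.4% of 22 peaks (17.2 to 59.3%), against 28.6% with it. Prdm6 was singled out for this after its numbers were seen.

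Prdm10 had 2 and 2, all outside the gene. A CD137 peak (chr9:31261896-31262835) and a PDGFRα peak (chr9:31265533-31266729) lay 2.70 kb apart on one side, and a PDGFRα peak (chr9:31399950-31401112) and a CD137 peak (chr9:31418773-31419961) lay in exons of Nfrkb on the other. Prdm11 had PDGFRα peaks in its exons (chr2:92966694-92968178 and chr2:92987618-92989246) and a CD137 peak in Syt13 (chr2:92947497-92948868). Prdm15 had PDGFRα peaks on one side, in C2cd2 (chr16:97868847-97870283 and chr16:97871939-97873486), and CD137 peaks on the other (chr16:97751501-97752679 in Ripk4 and chr16:97778114-97779309).

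Other PRDM genes had CD137 peaks only or none. Prdm1 (Blimp1), a repressor of several lineages, had 1 in an intron, the neural regulator gene Prdm13 had 2, Prdm2 had 2, and the germ cell regulator gene Prdm14 had 1, which lay in the coactivator gene Ncoa2. Prdm4, Prdm8, Prdm12 and the meiotic recombination gene Prdm9 had none.

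Numbers of peaks also followed gene length. All protein-coding genes of 200 kb and more averaged 1.69 PDGFRα and 3.33 CD137 peaks, and those under 25 kb averaged 0.437 and 0.578. Enzyme genes of 100 kb and more averaged 0.750 PDGFRα and 2.08 CD137 peaks (12 genes), beside 1.35 and 2.40 over all 2429 genes of that length. Enzyme genes under 100 kb averaged 0.576 and 0.864 (59 genes), beside 0.513 and 0.696 over all. In narrower classes the direction varied. Enzyme genes under 25 kb averaged 0.56 and 0.64, beside 0.437 and 0.578 over all genes of that length. Those of 25 to 50 kb averaged 0.375 and 1.25, beside 0.598 and 0.816, and those of 50 to 100 kb 0.778 and 0.833, beside 0.784 and 1.14. Kmt2c spans 227 kb and had no peak, whereas Hdac11 and Sirt2, which span 18.0 and 21.9 kb, had 5 each.

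**Figure D4:**
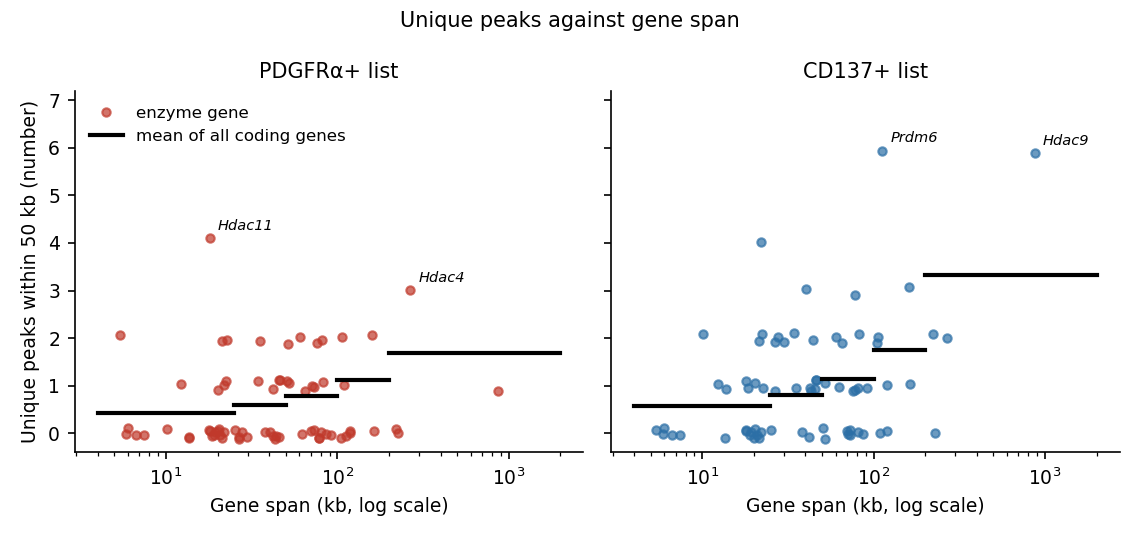
Number of unique peaks within 50 kb (y axis, points shifted slightly so that they do not hide each other) against gene span in kb (log x axis) for the 71 enzyme genes, with PDGFRα peaks on the left and CD137 peaks on the right. Black lines give the mean over all protein-coding genes in 5 classes of span, and Hdac11 on the left and Prdm6 on the right lie far above them.

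Many of the peaks lay in neighbouring genes. The member was the nearest protein-coding gene for 20 of 43 PDGFRα peaks (46.5%) and 42 of 76 CD137 peaks (55.3%), and 17 and 28 peaks had their centre in the member itself. Of the 71 members, 24 had a peak inside the gene (33.8%, background 24.1%). These were 10 with PDGFRα peaks only (14.1%, background 6.81%), 11 with CD137 peaks only (15.5%, background 10.9%) and 3 with both, among them Hdac4 and Hdac9 (4.23%, background 6.41%). These shares are over genes that are longer than most.

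In the deposited place classes, introns held a smaller share of the enzyme genes' peaks than of the peaks near all genes. Introns took 20.9% of the members' PDGFRα peaks (exact 95% interval 10 to 36%) and 25% of their CD137 peaks (15.8 to 36.3%), beside 41.3% and 43.3% of peaks within 50 kb of any protein-coding gene. The intron shares leave out the 1 PDGFRα and 6 CD137 peaks of Hdac9, which lie in its RefSeq span but have the class intergenic. How much such mismatches of annotation add to the difference was not tested. The class up5k took 23.3% (11.8 to 38.6%) and 22.4% (13.6 to 33.4%), beside 13.4% and 11.2%. Exons took 23.3% (11.8 to 38.6%) and 11.8% (5.56 to 21.3%), beside 11.4% and 9.92%. The class refers to the gene ID that the list gives the peak, which is often a neighbour of the member. Of all unique peaks that cover starts of minus-strand genes only, 59.4% have the class down5k, so up5k is not the promoter side of every gene. A peak of the opposite list lay within 5 kb of 11.6% of PDGFRα and 6.58% of CD137 peaks, beside 11.1% and 6.15% of the whole lists.

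**Figure D5:**
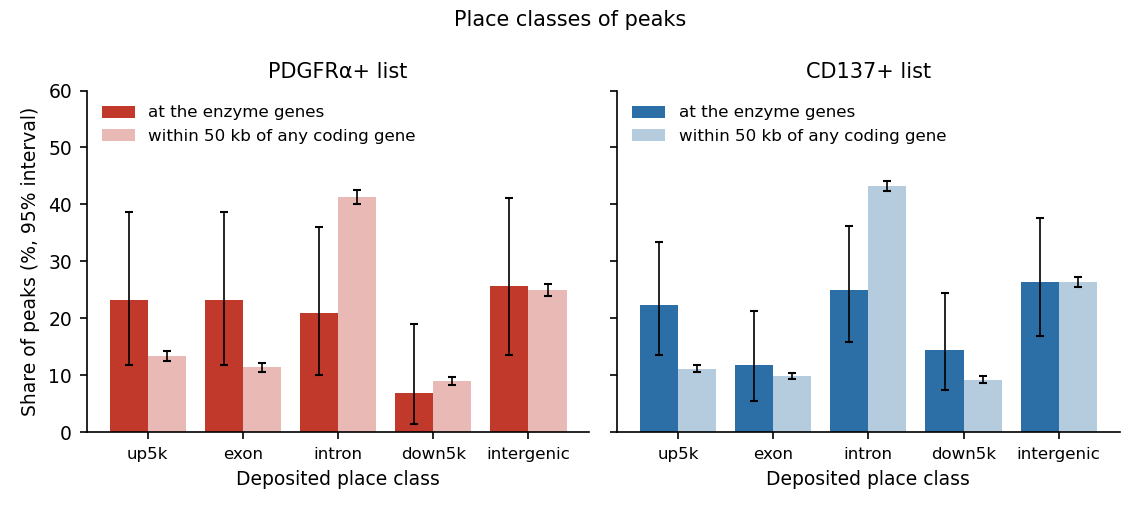
Share of peaks in each deposited place class (percent, bars, with exact 95% binomial intervals) for peaks at the enzyme genes (dark) and within 50 kb of any protein-coding gene (pale), for the PDGFRα list on the left and the CD137 list on the right. In both lists the dark intron bar is the lower of its pair and the dark up5k bar the higher.

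Partner genes outside the rule gave further numbers by the same window. Of 20 deacetylase corepressor partners 18 had a unique peak (90.0%, background 65.1%), with 23 PDGFRα and 22 CD137 peaks. Among them, Gatad2a, a NuRD subunit, had 2 and 0, Sap18 2 and 0, and Sin3b 0 and 3. Polycomb partners had 9 and 14 peaks at 7 of 9 genes. Jarid2, which helps to recruit the complex, had 2 and 5, Aebp2 had 0 and 4, and Rbbp4 had 3 and 2. COMPASS partners, which assist the H3K4 methyltransferases, had 3 and 4 peaks at 6 of 9 genes. Other lysine methyltransferase genes had 12 and 17 peaks at 12 of 13 genes, among them Smyd3 with 3 and 6, and the H3K9 enzyme gene Ehmt2 (G9a) with 2 and 0.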

How the data were processed

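ATAC-seq was measured in 1 PDGFRα+ and 1 CD137+ library. Per the file headers, the authors deposited 1 list of unique peaks per library, with chromosome, start, end, Ensembl gene ID and place class. The values used are genome positions. The submitters' processing notes name build mm10 and CASAVA 1.8, with no role. Not given in the sources used here are the aligner, any shift of reads, the peak caller with its threshold, the rule for unique and whether starts count from 0 or 1. Depth and threshold can change the length of a list.

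Gene spans came from a RefSeq table (GRCm38.p6). Each peak went to the nearest member within 50 kb of its centre. The closest members lie 113 kb apart. Over all genes, a peak counted for every gene within 50 kb, and densities used merged windows. A nearest gene is the shortest one where genes overlap. Peaks just inside the limit were 49.80 kb (Sirt2), 49.87 kb (Hdac5) and 50.00 kb (Kdm2b) away, and just outside 50.02 kb (Prdm11), 51.27 kb (Setd7) and 51.68 kb (Kdm2a).

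Members and lists were chosen with earlier results of these data known. All but 1 of the members with a peak are named, since some items are not reported here. Positions are given for members with 3 or more peaks, apart from such items, for peaks over a start and for PDGFRα peaks of members without CD137 peaks. The assignment was tested on simulated data. Python 3.11.15, pandas 2.3.3, numpy 2.4.6, matplotlib 3.10.9 and scipy 1.17.1 were used.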

Additional observations from a re-analysis of the deposited data

How the results depend on the processing

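Depth is unknown and was not equalised, and no library could be left out. No paired analysis was possible because each group holds a single library. The PDGFRα share of peaks at the enzyme genes stayed within the interval of the reported value in 7 of 8 alternatives, between 32.3 and 39.3%. With the CD137 list limited to its 8002 widest peaks it was 48.9%, beside 51.7% near all genes under that choice. The counts of genes depended on the window and on the peaks used. With a peak were 28 members within 5 kb and 30 when the member had to be the nearest gene, against 50. CD137 peaks only were at 13 members within 5 kb and at 13 with lists of equal length, against 22, and PDGFRα peaks only were at 5 within 100 kb, against 8. Peaks of both lists were at 3, 13 and 37 members within 5, 25 and 100 kb, at 6 when the member had to be the nearest gene and at 8 with the wider 50% of each list, against 20. With the wider 50%, the windows held 2.09 PDGFRα and 3.43 CD137 peaks per Mb, beside 1.95 and 3.23 over all genes. Without Hdac9, the gene with the most peaks, the PDGFRα share was 37.5%.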

Other observations

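Acetyltransferase genes, whose products add the groups that deacetylases remove, had 8 PDGFRα and 20 CD137 peaks at 9 of 13 genes (69.2%, beside 65.1% of all protein-coding genes). The coactivator gene Ncoa3 had 0 PDGFRα and 5 CD137 peaks and Kat6b had 0 and 4, whereas Ncoa1 had 4 and 1. Other JmjC genes had 9 and 9 peaks at 7 of 8 genes, and Jmjd6 alone gave 5 and 0. These genes were picked from the fixed lists after their numbers were seen.

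The place classes up5k and down5k followed the strand of the gene in an unequal way. Peaks that cover starts of both strands were left out here. Of 415 unique peaks of both lists that cover listed starts of plus-strand genes only, 76.6% have the class up5k and 2.17% the class down5k. Of 394 that cover starts of minus-strand genes only, 23.6% have the class up5k and 59.4% the class down5k. Among the enzyme genes, the peaks over the starts of Ezh1 and Kdm1a, both on the minus strand, have the class down5k, and those over the starts of Dot1l and Kdm5d, both on the plus strand, have the class up5k. Shares of up5k peaks therefore hold starts of plus-strand genes more than those of minus-strand genes.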
